A study of Mus musculus with 6 samples.

Results

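The cytosolic ribosomal protein genes were examined in alveolar macrophages, phagocytes that reside in the lung's air spaces, with and without the histone deacetylase Hdac3. Members were taken by symbol, as Rpl or Rps followed by a digit together with Rplp0, Rplp1, Rplp2 and Rpsa, without the ribosomal S6 kinases, Rps19bp1 and symbols that mark a pseudogene. This gave 87 of the 18392 genes in the table, 53 of the large and 34 of the small subunit, and 86 reached the level needed for testing, a mean of 1 FPKM over all libraries. The exception was Rpl32l, which read 0.11 FPKM in control 1 and was listed at 0 in the other 5 libraries. FPKM are fragments scaled by transcript length and by the mapped fragments of a library, so levels of different genes can be compared.

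RNA came from sorted alveolar macrophages of C57BL/6 mice that were 6 weeks old. Both groups carried floxed Hdac3 alleles. The 3 control libraries came from Hdac3fl/fl mice and the 3 knockout libraries from Cd11c-CreHdac3fl/fl mice, in which Cre is driven by the promoter of Cd11c, a gene that dendritic cells also express. Whether libraries of a group stem from different mice is not stated, so p-values describe the spread between libraries, which may be technical. The comparison asks which transcripts differ when Hdac3 is deleted. Hdac3 read 17.71, 19.89 and 16.94 FPKM in controls and 4.36, 5.05 and 3.97 FPKM in knockouts. Its log2 difference was -1.81 (SE 0.09; limma adjusted p = 6.8e-07) and -1.48 under TMM scaling, and a gene-level value also counts reads outside the deleted exons.

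The ribosome is built from ribosomal RNA and one copy each of most ribosomal proteins, with the acidic stalk proteins as the known exception. The small subunit reads the messenger RNA, and the large subunit joins amino acids and releases the chain through its exit tunnel. In mammals the mRNAs of ribosomal proteins begin with a run of pyrimidines, the terminal oligopyrimidine or TOP motif, through which the kinase mTORC1 and the protein Larp1 control their translation and stability. Macrophages, like other cells, hold these mRNAs among their most abundant transcripts.

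Promoter sequence was listed in RefSeq, on GRCm38.p6, for 66 of the 87 members, and 1 annotated start was used per gene. The stretches printed here run from 100 bases before to 20 bases after that start, 5′ to 3′. They belong to members described further on as higher (Rps2, Rpl36a and Rpl39l) or lower (Rps12 and Rpl22) as deposited, to the pair Rpl36a and Rpl36al, whose members moved in opposite directions as deposited, and to Rps27, whose start lies in a pyrimidine run. Capitals mark CTTTCC on the sense strand, CCGGAA on either strand and TATAAA on the sense strand. The stretches of Rps2, Rps12, Rpl22 and Rpl36al hold none of them. The counts given after the stretches also cover bases outside them. Rps2 is thus counted for CCGGAA and TATAAA, and Rpl36al and Rpl36a for CTTTCC. In Rpl39l and Rps27 the matches to CTTTCC and CCGGAA overlap. Starts are as that table gives them and can differ from the outer ends of the gene given further on. Rps29 had no entry.
Rps2, chr17:24719963-24720082, plus strand: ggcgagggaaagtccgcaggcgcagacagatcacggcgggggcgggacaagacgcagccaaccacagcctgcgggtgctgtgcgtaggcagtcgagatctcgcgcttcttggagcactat
Rpl36a, chrX:134585554-134585673, plus strand: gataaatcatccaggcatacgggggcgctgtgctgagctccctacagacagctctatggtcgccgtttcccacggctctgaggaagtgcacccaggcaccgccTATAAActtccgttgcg
Rpl39l, chr16:10170128-10170247, plus strand: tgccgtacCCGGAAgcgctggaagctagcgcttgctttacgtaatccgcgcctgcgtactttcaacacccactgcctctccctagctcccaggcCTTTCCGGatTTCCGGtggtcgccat
Rps12, chr10:23787190-23787309, minus strand: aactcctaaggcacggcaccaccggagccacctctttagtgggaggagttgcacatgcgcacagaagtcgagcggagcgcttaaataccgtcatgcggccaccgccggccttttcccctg
Rpl22, chr4:152324336-152324455, plus strand: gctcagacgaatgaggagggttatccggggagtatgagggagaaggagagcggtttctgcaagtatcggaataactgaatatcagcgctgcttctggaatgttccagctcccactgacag
Rpl36al, chr12:69184048-69184167, minus strand: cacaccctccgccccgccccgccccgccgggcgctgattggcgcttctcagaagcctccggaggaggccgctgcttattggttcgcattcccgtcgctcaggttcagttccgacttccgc
Rps27, chr3:90213629-90213748, minus strand: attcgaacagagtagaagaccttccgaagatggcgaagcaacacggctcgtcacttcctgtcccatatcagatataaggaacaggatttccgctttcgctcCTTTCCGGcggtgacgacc
CTTTCC lay on the sense strand within 50 bases of the start in 18 of 66 members (27.3%). The shares were 4.69% of 27025 promoters scanned over the same bases and 4.25% of those of other tested genes. The longer run CTCTTTCC, which contains CTTTCC, was found there in 6 members (9.1%), against 0.44% both of all promoters and of those of other tested genes, in Rpl6, Rpl18, Rpl26, Rpl28, Rpl35a and Rpl36a. The next 2 motifs and CCGGAA, the core that ETS factors bind, were sought from 250 bases before to 50 bases after the start. CCGGAA was found on either strand in 33 of 66 members, against 15.2% of all promoters and 31.04% of 8592 promoters of other tested genes. A longer palindrome with a CGCG core was found in 5 members (7.6%), against 0.49% of all promoters and 1.15% of those of other tested genes. The cyclic AMP response element TGACGTCA was found on either strand in 5 members (7.6%), against 1.86% of all promoters and 3.34% of those of other tested genes. TATAAA lay within 50 bases of the start in Rpl22l1, Rpl36a, Rplp0, Rps2 and Rps28, 5 of 66 members (7.6%), against 3.67% of all promoters and 1.87% of those of other tested genes. Members with and without CTTTCC had the same median log2 difference, -0.15 over 18 and -0.15 over 47 members. Those with CCGGAA had a median of -0.14 over 33 members and those without it -0.24 over 32 members. A match is a description of these letters and no sign that a factor binds.

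As deposited, ribosomal protein mRNAs were more often lower than higher in knockouts, and under TMM scaling more often higher than lower. Of 86 tested members, 38 were called lower and 4 higher, and 44 did not pass a limma adjusted p under 0.05. Over all 10847 tested genes, 58.8% were called lower and 11.0% higher, beside 44.2% and 4.65% of the members. The median log2 difference was -0.17 over the members and -0.31 over all tested genes. TMM scaling sets a trimmed mean of the log ratios of genes level between libraries. After it, 39 members were called higher and 1 lower, beside 30% higher and 26.0% lower among 10817 genes. The members' median then stood at 0.20 and that of all tested genes at 0.02. Of the 38 members called lower as deposited, 37 were not called under TMM scaling, and 35 of the 44 not called became higher. Rps2, Rpl36a, Rpl3l and Rpl39l were called higher under both scalings. All 3 knockouts lay below all 3 controls in 40 members (46.5%), against 62.4% of all tested genes, and above them in 5 members (5.81%), against 12.1%. In bulk samples fewer cells of a type and less RNA per cell cannot be told apart.

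**Figure D1:**
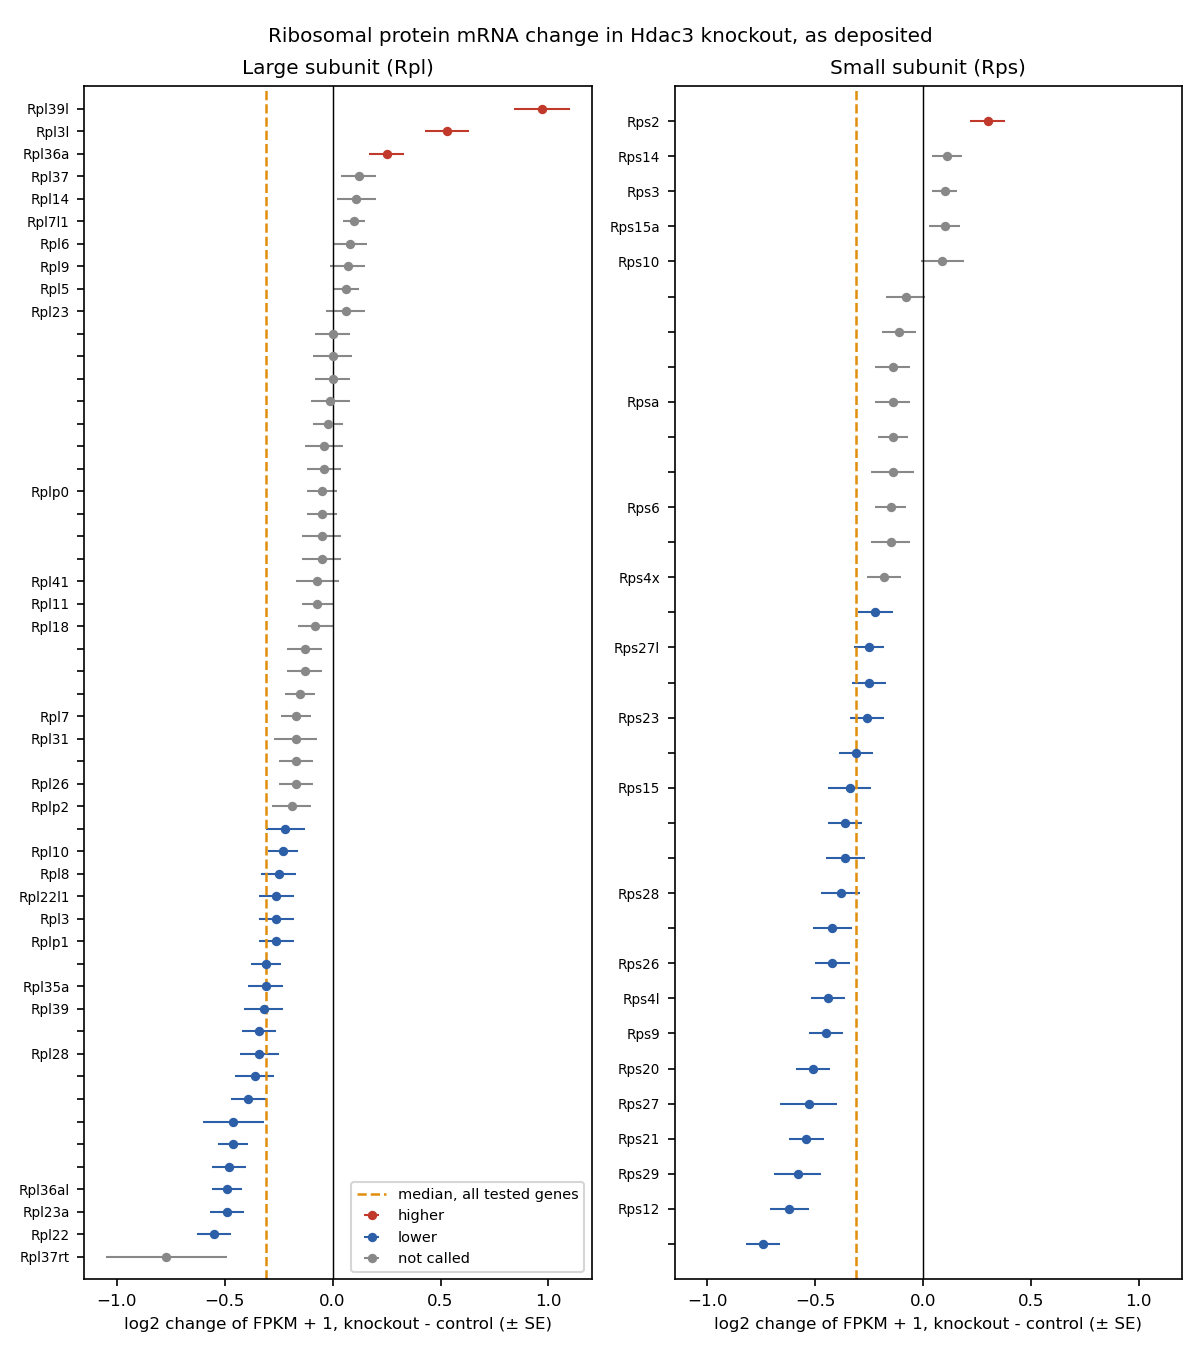
Log2 change of FPKM + 1 from control to knockout with its SE (points and bars, 3 libraries per group) for the tested large and small subunit genes, as deposited, without Rps27rt, whose SE was 1.98. Genes named in the text are labelled. Red points were called higher, blue points lower and grey points not called, and the dashed line marks the median of all tested genes at -0.31, and 69 of 86 tested members had a negative difference.

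Ribosomal protein mRNA made up a smaller share of the knockout libraries. It held 9.93%, 10.18% and 9.72% of the FPKM sum in the controls and 7.53%, 8.02% and 8.89% in the knockouts, so the groups did not overlap. The 10 most abundant genes, none of them a member, held 13.19 to 13.91% in controls and 25.49 to 26.76% in knockouts. Leaving those 10 genes out of the sum, the members' share was 11.44%, 11.75% and 11.29% in controls and 10.27%, 10.92% and 11.93% in knockouts, and the groups overlapped. No test is given for these shares, since they are sums over the members.

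**Figure D2:**
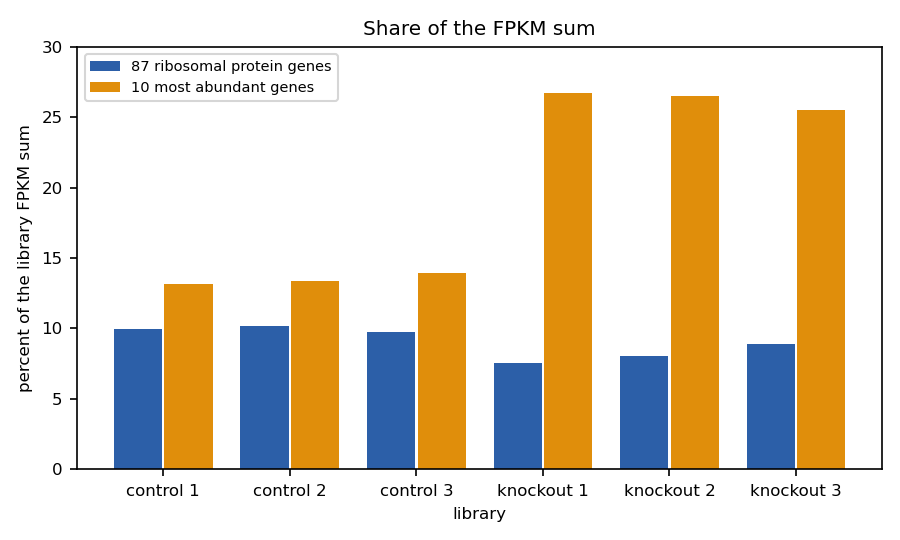
Percent of the summed FPKM of each library held by the 87 ribosomal protein genes (blue bars) and by the 10 most abundant genes of that library (orange bars). The blue bars lie at 9.72 to 10.18% in the control libraries and at 7.53 to 8.89% in the knockout libraries, while the orange bars are at most 13.91% in controls and at least 25.49% in knockouts.

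The third knockout library stood apart in these genes. Its value was the highest of the 3 knockouts in 81 of 86 members (94.2%), against 31.2% of the 10761 other tested genes. The first knockout library was the lowest of the 3 in 80 of 86, largely the same order seen from its low end and not counted over other genes. Relative to the control mean, the median log2 difference of the members was -0.30, -0.21 and -0.03 in knockouts 1, 2 and 3, and that of the other tested genes was -0.31, -0.30 and -0.32. The median SD of a member on the log2 scale was 0.0586 among controls and 0.145 among knockouts, against 0.0869 and 0.0902 for other tested genes. After each library was shifted to the same median ribosomal protein level, the members' SD was 0.0502 and 0.058. A shift shared by the members thus made up most of their spread among knockouts.

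Without the third knockout library, 55 members were called lower and 4 higher, beside 55.7% lower and 10.6% higher among all 10900 genes tested. All 38 members called lower with it and all 4 called higher were called so without it, and 17 more were called lower, with a median log2 difference of -0.25 over the members. That library gave the highest knockout value in 11 of 41 initiation factors and in 8 of 70 ribosome biogenesis factors. The 41 initiation factors had medians of -0.11, -0.05 and -0.09 in knockouts 1, 2 and 3, and the 70 tested ribosome biogenesis factors -0.17, -0.11 and -0.25. Other genes with transcripts under 1000 bases and levels of 100 to 2000 FPKM had their highest knockout value in knockout 3 in 71 of 108 cases (65.7%), with medians of -0.26, -0.16 and -0.10. The median transcript length was 799 bases over 85 members and 2743 bases over the tested genes.

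Markers of other cells also differed in that library. The summed level of 14 lung epithelial markers was 48.1, 54.9 and 119.9 FPKM in knockouts 1, 2 and 3, with the club cell gene Scgb1a1 at 5.15, 4.75 and 56.52 FPKM. That of 8 erythroid and platelet markers was 29.1, 21.0 and 108 FPKM, and that of 15 alveolar macrophage markers was 31148, 28744 and 24318 FPKM. Chil3 alone read 25158.12, 22654.07 and 17845.36 FPKM, and the other alveolar macrophage markers together were not lower in knockout 3. Control 1 had still higher epithelial and erythroid sums, 325 and 289.9 FPKM, beside 184 and 232 in control 2 and 120.5 and 42.1 in control 3, while the median deviation of the members in the controls ran from -0.04 to 0.05. Their part in the shift of knockout 3 was not tested. The summed T and NK cell markers ran from 13.9 to 18.5 FPKM in controls and from 3.66 to 5.02 FPKM in knockouts. Those of B cells ran from 17.9 to 36.2 and 5.7 to 7.05 FPKM. The 8 endothelial markers summed to 69.2 to 87.7 and 31.1 to 35.0 FPKM. Of 6 tested, 5 were lower as deposited, and 4 were lower and 1 higher under TMM scaling. Flt1 alone read 27.11 to 33.63 FPKM in controls and 0.83 to 1.02 FPKM in knockouts. Vwf went the other way, from 20.43 to 25.09 FPKM in controls to 25.58 to 30.87 FPKM in knockouts. The 8 dendritic cell markers summed to 8.56 to 18.7 and 4.85 to 8.23 FPKM, with 2 of 3 tested lower and 1 higher under both scalings. The part of these cells in the lower values of the members as deposited was not tested. All 4 tested T and NK cell markers and all 5 tested B cell markers were lower under both scalings. Of 10 tested epithelial markers 5 were lower and 1 higher as deposited, against 2 lower and 1 higher under TMM scaling, and of 6 erythroid and platelet markers 2 were lower. Of the 15 alveolar macrophage markers 7 were higher and 6 lower. The 10 neutrophil markers summed to 78.0 to 96.0 FPKM in controls and to 48.0 to 69.5 FPKM in knockouts. Csf3r alone read 29.05, 25.15 and 50.5 FPKM in controls and 4.89, 5.62 and 3.81 FPKM in knockouts. The other neutrophil markers together overlapped between the groups. Ly6g was at no more than 0.06 FPKM, Mmp8, S100a8 and Csf3r were detected in every library, and 1 of 6 tested was lower as deposited. The 7 eosinophil and basophil markers summed to at most 1.39 FPKM in any library, and none reached the level tested. Siglecf, a marker of alveolar macrophages, read 216.35 to 237.13 FPKM in all 6 libraries, while others of that list moved in both directions. Ear1 read 913.13 to 1016.6 FPKM in controls and 28.95 to 33.4 FPKM in knockouts. Car4 read 273.66 to 504.29 and 1489.72 to 2018.09 FPKM.

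**Figure D3:**
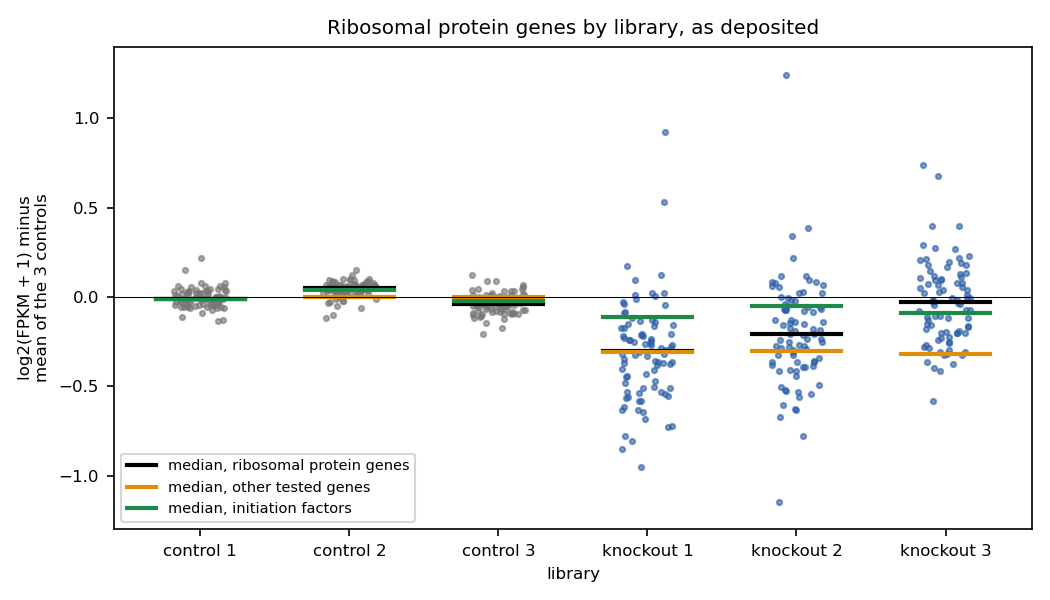
Log2(FPKM + 1) of each tested member except Rps27rt minus its mean over the 3 controls (points), by library, with the medians of the ribosomal protein genes (black), of all other tested genes (orange) and of the initiation factors (green). The black line lies at -0.30, -0.21 and -0.03 in knockouts 1, 2 and 3, while the orange line stays between -0.32 and -0.30 in the 3 knockouts.

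Levels in controls spread widely around a common range. Leaving out 10 extra copies, the 77 standard members had control means from 26.3 to 1622 FPKM with a median of 587 FPKM, and the middle of the distribution lay between 428 and 715 FPKM. Only 3 of them, Rps15a, Rpl22 and Rps20, stayed under 100 FPKM. Rps15a, a small subunit protein, read 25.49, 27.65 and 25.89 FPKM in controls, while its listed pseudogenes Rps15a-ps4 and Rps15a-ps6 had control means of 57.2 and 50.3 FPKM. The 3 rows together gave 135.52, 138.77 and 127.15 FPKM in controls and 131.53, 138.8 and 145.3 FPKM in knockouts. Such near-identical copies share reads, so the split between a gene and its copies is uncertain. The same holds for Rpl31, whose pseudogene Rpl31-ps12 was listed higher, at 311 against 206 FPKM in controls. With such genes summed with their listed copies, Rplp2, Rps4x, Rps27, Rpl37 and Rpl14 kept their calls, and the log2 difference of Rpl37 went from 0.12 to 0.06.

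The 4 most abundant members were Rplp1, Rpl10, Rpl41 and Rps9. Rplp1, an acidic stalk protein, read 1622.01, 1651.36 and 1591.52 FPKM in controls and 1224.3, 1337.97 and 1508.35 FPKM in knockouts. All 3 knockouts lay below the controls (log2 difference -0.26, SE 0.08; limma adjusted p = 0.018), but the change was 0.12 and not called under TMM scaling, and the call was lost without control 2 or knockout 2. Rpl10, which joins the large subunit late in its assembly and lies near the peptidyl transferase centre, went from 1373 ± 34.7 to 1169.7 ± 91.3 FPKM (SD, n = 3; log2 difference -0.23, 0.14 with TMM; limma adjusted p = 0.016 as deposited). Its call was lost without control 2 or knockout 2 (limma adjusted p = 0.066 and 0.068). Rpl41, the shortest ribosomal protein, stood at 1304 ± 91.5 and 1245 ± 152 FPKM with overlapping groups and did not pass the test as deposited (log2 difference -0.07). Rps9 fell as deposited from 1204 ± 26.7 to 887 ± 90.1 FPKM (log2 difference -0.45; limma adjusted p = 0.00089) and had a change of -0.07, not called, under TMM scaling.

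The lowest changes belonged mostly to small subunit genes. Rps12, a protein of the beak, read 661.89, 714.34 and 688.53 FPKM in controls and 400.88, 432.03 and 516.71 FPKM in knockouts. It was lower as deposited (log2 difference -0.62; limma adjusted p = 0.00033) and missed the threshold under TMM scaling (log2 difference -0.24; limma adjusted p = 0.054). Rps29, a zinc-binding protein of the small subunit head, read 557.93, 527.2 and 522.68 FPKM in controls and 305.67, 351.42 and 428.98 FPKM in knockouts. The groups did not overlap in either gene, and Rps29 had a log2 difference of -0.58 as deposited (limma adjusted p = 0.0019) and -0.20, not called, under TMM scaling. Rpl22, a protein near the exit tunnel, had the lowest change among standard members of the large subunit, from 94.8 ± 2.54 to 64.8 ± 7.46 FPKM (log2 difference -0.55, -0.17 with TMM; limma adjusted p = 0.00029 as deposited).

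The median was lower over the small subunit genes than over the large. As shares, 55.9% of Rps and 36.5% of Rpl genes were called lower as deposited, beside 58.8% of all tested genes. Of 34 tested Rps genes, 19 were called lower and 1 higher, with a median log2 difference of -0.25 as deposited and 0.12 under TMM scaling. Of 52 tested Rpl genes, 19 were called lower and 3 higher, with medians of -0.14 and 0.23. The difference between the subunits was not tested. Medians of the 2 subunits in knockouts 1, 2 and 3 were -0.37, -0.28 and -0.14 for Rps and -0.26, -0.16 and 0.01 for Rpl genes, so the small subunit was lower in each knockout library.

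Higher transcripts were few. Rps2, which lines the channel by which mRNA enters the small subunit, read 889.14, 951.69 and 868.88 FPKM in controls and 1016.96, 1142.04 and 1191.07 FPKM in knockouts. All knockouts exceeded all controls (log2 difference 0.30, SE 0.08; limma adjusted p = 0.0062), with a change of 0.68 under TMM scaling and 0.26 without knockout 3. The gene lies at chr17:24718121-24721927 on GRCm38. Rps3, its neighbour at the entry channel, went from 334 ± 12.9 to 357 ± 19.3 FPKM and missed the threshold as deposited (log2 difference 0.10; limma adjusted p = 0.20) but rose under TMM scaling (log2 difference 0.47). Rpl36a, on the X chromosome at 134585654-134588062, read 339.55, 359.08 and 353.01 FPKM in controls and 381.87, 408.22 and 462.19 FPKM in knockouts. It rose without overlap (log2 difference 0.25, SE 0.08; limma adjusted p = 0.018; 0.62 under TMM scaling), but the call was lost without control 1 (log2 difference 0.22; limma adjusted p = 0.061). Rpl37 and Rpl14 came next with log2 differences of 0.12 and 0.11, not called as deposited, and both rose under TMM scaling, by 0.49 on the log2 scale.

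Rpl39l, known as the testis form of the exit tunnel protein Rpl39, was the member with the highest log2 difference. It read 0.89, 0.82 and 0.79 FPKM in controls and 2.48, 3.34 and 2.06 FPKM in knockouts, a low level but with no overlap (log2 difference of FPKM + 1 0.97, SE 0.13; limma adjusted p = 0.00019; 1.19 under TMM scaling). It reached the level tested only through the knockouts, and the added 1 FPKM makes the change smaller than that of the FPKM. Rpl3l, known in striated muscle as the counterpart of Rpl3, read 5.34, 4.33 and 4.53 FPKM in controls and 7.26, 6.48 and 8.15 FPKM in knockouts (log2 difference 0.53, SE 0.10; limma adjusted p = 0.0012; 0.85 under TMM scaling). Both were far under their standard partners, Rpl39 at 411 ± 23.3 and Rpl3 at 514 ± 52.9 FPKM in controls.

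The ratio of a paralog to its standard gene within a library, as a difference of log2(FPKM + 1), hardly depends on the scaling and was compared for 7 pairs. In each pair the 3 knockout ratios did not overlap the 3 control ratios, with an exact two-sided permutation p = 0.10 for each pair, the smallest that 3 against 3 libraries allow, and 0.10 after adjustment over the 7 pairs. None could pass the threshold. No share of other gene pairs is given beside this count. Single genes often separated as deposited, with all 3 knockouts below all 3 controls in 62.4% of tested genes and above them in 12.1%. Rpl36al read 237.94, 237.16 and 261.27 FPKM in controls and 168.02, 168.06 and 188.5 FPKM in knockouts, opposite to Rpl36a. The log2 ratio of Rpl36al to Rpl36a was -0.51, -0.60 and -0.43 in controls and -1.18, -1.28 and -1.29 in knockouts, a difference of -0.73. Rpl22l1, a paralog of Rpl22, had a log2 ratio to it of -0.31, -0.27 and -0.39 in controls and -0.05, 0.01 and -0.08 in knockouts, so the pair stood near equal levels in knockouts. The transcripts themselves both fell as deposited, Rpl22l1 from 75.6 ± 4.93 to 63.1 ± 5.89 FPKM (log2 difference -0.26, 0.11 with TMM), and its call was lost without control 2, knockout 1 or knockout 2 (limma adjusted p = 0.066, 0.06 and 0.051).

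In knockouts the log2 ratio of Rpl3l to Rpl3 was higher by 0.79 and that of Rpl39l to Rpl39 by 1.29 on the log2 scale of FPKM + 1, or 0.87 and 1.84 with a pseudocount of 0.1. Rps27l, a target of p53, over Rps27 was -3.00, -3.01 and -3.01 in controls and -2.52, -2.69 and -2.98 in knockouts, so knockout 3 lay beside the controls. Rps27 went from 650.4 ± 51.9 to 455 ± 86.7 FPKM and Rps27l from 79.9 ± 6.28 to 67.0 ± 2.57 FPKM. Rpl7l1 over Rpl7 differed by 0.28, with Rpl7l1 between 28.86 and 29.54 FPKM in controls and between 31.3 and 31.91 FPKM in knockouts. Rps4l over Rps4x differed by -0.25, with Rps4l at 36.3 ± 2.79 FPKM in controls and 26.6 ± 2.60 FPKM in knockouts. Of the retrogene copies, Rps27rt was read unevenly in both groups and Rpl37rt mainly through knockout 3. Rps27rt gave 38.75, 0 and 13.71 FPKM in controls and 12.22, 12.82 and 0 in knockouts, and Rpl37rt 25.62, 20.06 and 20.38 FPKM in controls and 10.81, 9.34 and 18.99 in knockouts. Neither passed the test as deposited. Without knockout 3, Rpl37rt was called lower (log2 difference -1.05; limma adjusted p = 0.00031), and leaving out any other library gave no call.

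**Figure D4:**
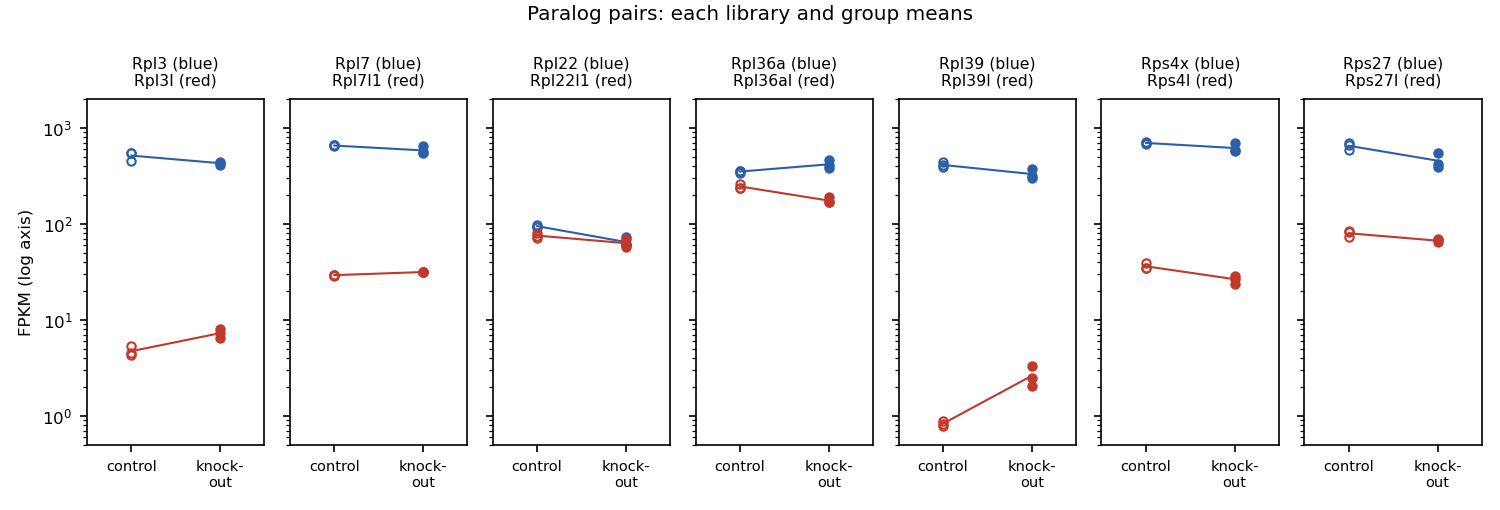
FPKM on a log axis of 7 standard ribosomal protein genes (blue) and their paralogs (red) in each control (open circles) and knockout library (filled circles), with lines between the group means. Rpl36a and Rpl36al move apart, from means of 351 and 245 FPKM in controls to 417 and 175 FPKM in knockouts, while Rpl22 and Rpl22l1 come to 64.8 and 63.1 FPKM.

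Members were also grouped by place in the ribosome, in groups of at most 9, beside 58.8% of all tested genes called lower as deposited and 30% higher under TMM scaling, and nothing is read from such small counts. The proteins near the peptidyl transferase centre, Rpl3, Rpl8 and Rpl10, were all called lower as deposited, with log2 differences of -0.26 to -0.23, and none was called under TMM scaling. The call of Rpl3 was lost without control 1, control 2 or knockout 1 (limma adjusted p = 0.074, 0.084 and 0.061). In the stalk, which recruits the GTPases of translation, Rplp1 alone of 4 members was called as deposited, and under TMM scaling Rplp0 and Rpl12 were higher (log2 differences 0.33 and 0.38) and Rplp1 was not called. Rplp0, the base of the stalk, read 874.45, 881.34 and 811.28 FPKM in controls and 781.26, 809.28 and 897.58 FPKM in knockouts, and Rplp2 838.65, 839.9 and 825.61 against 650.99, 722.37 and 826.35 FPKM. Their groups overlapped through knockout 3. The 5S RNA partners Rpl5 and Rpl11, which can bind the p53 regulator Mdm2, were not called as deposited (log2 differences 0.06 and -0.07) and rose under TMM scaling (log2 differences 0.44 and 0.31). Along the exit tunnel and its rim, 3 of 9 members were lower as deposited, against 3 higher and none lower under TMM scaling and 7 lower without knockout 3. The 3 lower as deposited were Rpl22, Rpl23a and Rpl39, the last from 411 ± 23.3 to 330.4 ± 38.6 FPKM. At the mRNA exit and platform, 3 of 5 members were lower as deposited, among them Rps26 and Rps28 (log2 differences -0.42 and -0.38). Rps14 had 0.11 and Rpsa -0.14, both not called. Under TMM scaling Rps14 and Rpsa were higher (0.48 and 0.24) and Rps26 and Rps28 were not called. Rpsa, also known as the laminin receptor precursor, read 480.45, 487.34 and 431.29 FPKM in controls and 385.83, 421.97 and 462.94 FPKM in knockouts. Rps15 and Rps23, at the decoding centre, were both lower, with log2 differences of -0.34 and -0.26 as deposited, and neither was called under TMM scaling. Rps6, the substrate that gives the S6 kinases their name, went from 403 ± 16.9 to 363 ± 29.4 FPKM (log2 difference -0.15, not called as deposited, and 0.22, higher, under TMM scaling). Of 9 members mutated in human Diamond-Blackfan anaemia, 4 were lower and none higher as deposited, with a median of -0.15, against 3 higher and none lower under TMM scaling.

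Taking each library relative to the median ribosomal protein level asks which members moved apart from the others. In that fit 14 members were higher (16.3%) and 6 lower (6.98%), beside 14.7% higher and 21.9% lower among all tested genes. The share of members called higher thus lay near that of all tested genes. Among the lower ones were Rps12, Rps29, Rps21, Rps27 and Rpl37rt. The higher ones were the 4 called as deposited and Rpl5, Rpl6, Rpl9, Rpl14, Rpl23, Rpl37, Rpl7l1, Rps3, Rps10 and Rps14. Rps2 had a relative change of 0.55 (SE 0.11; limma adjusted p = 2.1e-06). As deposited its SE was 0.08, though the members' median SD within groups was smaller after the shift. The p-values and calls of this fit thus do not measure the spread of a single member between libraries. Across the 77 standard members the change was not related to level (Spearman 0.00, Pearson 0.03, described across genes of the same libraries) and weakly to transcript length (0.18 and 0.17).

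Ribosomal proteins are also made from genes outside the naming rule. Fau, which encodes a fusion with the small subunit protein of the mRNA entry channel, read 1013.01, 1036.47 and 1002.74 FPKM in controls and 724.59, 784.19 and 829.53 in knockouts and fell as deposited (log2 difference -0.39; limma adjusted p = 0.00081), with -0.01 under TMM scaling. Rack1, the scaffold on the small subunit head, had 638 ± 39.3 and 722 ± 54.7 FPKM and missed the threshold as deposited (log2 difference 0.18) but rose under TMM scaling (0.55). Both had their highest knockout value in knockout 3.

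Genes that serve the ribosome were described by list, each count to be read beside all tested genes, of which 11.0% were higher and 58.8% lower as deposited and 30% higher and 26.0% lower under TMM scaling. In the elongation and termination list 3 of 12 rose and 3 fell, with a median log2 difference of 0.03, against 9 rises and no fall under TMM scaling. Eef1g, a subunit of the factor that reloads Eef1a1, rose from 156 ± 8.79 to 257 ± 18.9 FPKM (log2 difference 0.71, 1.09 with TMM; limma adjusted p = 3.5e-05 as deposited). Eef2, the translocase, rose from 691 ± 34.4 to 819.6 ± 19.2 FPKM (log2 difference 0.25, 0.62 with TMM). Tpt1, another mRNA with a TOP motif, fell as deposited from 1614 ± 36.3 to 1296 ± 99.9 FPKM (log2 difference -0.32, 0.06 with TMM). Eef2k, the kinase that inhibits Eef2, had a log2 difference of -0.41 and -0.09 under TMM scaling. Of 41 initiation factors 7 rose and 15 fell, with a median of -0.07, against 30 rises and 2 falls under TMM scaling. Eif1a and Eif4b rose (0.52 and 0.30) and Eif4g3 and Eif1 fell (-0.80 and -0.73), in the same direction under TMM scaling.

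Ribosome biogenesis genes had a median log2 difference of -0.19. Of 70 tested, 6 rose and 32 fell, against 30 rises and 3 falls under TMM scaling. Tsr1 and Pno1, factors of small subunit assembly, rose (0.58 and 0.53), and Mrto4, a factor related to Rplp0 that acts in assembly of the large subunit, fell (-0.69), under both scalings. Riok1, a kinase of small subunit assembly, fell as deposited (-0.57; -0.25 and not called under TMM scaling). Of 16 genes of RNA polymerase I and its factors none rose and 11 fell, against 2 rises and 4 falls under TMM scaling. Myc, an activator of ribosome genes, fell from 48.7 ± 8.58 to 22.8 ± 1.62 FPKM (log2 difference -1.05, -0.68 with TMM; limma adjusted p = 0.00018 as deposited), and Taf1c from 8.21 ± 0.0794 to 4.61 ± 0.500 FPKM. Of 12 genes for chaperones and importers of ribosomal proteins 1 rose and 4 fell, against 10 rises and 1 fall under TMM scaling. Zfp622, a factor of late large subunit maturation, fell (log2 difference -0.95, -0.59 with TMM), Bccip fell as deposited (-0.26, 0.10 with TMM), and Tnpo1 rose (0.17, 0.53 with TMM).

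In the mTORC1 list 3 of 25 rose and 12 fell, against 13 rises and 5 falls under TMM scaling. Pdcd4, an inhibitor of initiation that S6 kinase marks for destruction, fell from 13.9 ± 0.179 to 4.40 ± 0.402 FPKM (log2 difference -1.47, -1.14 with TMM; limma adjusted p = 6.2e-07 as deposited). Sesn1, an inhibitor of mTORC1, fell from 4.89 ± 1.06 to 1.57 ± 0.158 FPKM, while the related Sesn2 rose from 9.70 ± 0.295 to 12.6 ± 0.702 FPKM. The S6 kinase gene Rps6kb1 rose from 12.0 ± 0.475 to 15.6 ± 0.239 FPKM (log2 difference 0.36, 0.71 with TMM). Among the kinases and Rps19bp1 that the naming rule leaves out, 2 of 9 rose and 6 fell, against 3 rises and 2 falls under TMM scaling. Rps6ka5 and Rps6ka1 fell under both scalings (log2 differences -1.58 and -0.97 as deposited), and Rps19bp1 rose (0.40).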

How the data were processed

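The authors deposited gene-level FPKM with 2 decimals for 18392 genes, 1 column per library per the file headers. Bowtie2, RSEM and the build mm10 are named, without versions, per the submitters' processing notes. Strand and read filters: not given in the sources used here. FPKM keep no depth, so no counting interval is given. Log2(FPKM + 1) was tested with limma 3.58.1 in R 4.3.3 (trended, robust, two-sided, genotype as the only term) over genes averaging 1 FPKM or more, with calls at an adjusted p (Benjamini-Hochberg) under 0.05. TMM factors were computed from the FPKM matrix (30% of log ratios and 5% of levels trimmed). Control libraries were divided by 1.13 to 1.15 and knockouts by 0.873 to 0.883, which moved the median log2 change of all tested genes from -0.31 to 0.02. The procedure was tested on simulated data with independent noise and few changed genes. That test does not cover a shift shared by many genes, as seen in these libraries. Members, lists and tests were chosen with earlier results of these data known. Named genes are the 6 highest and 6 lowest changes, the 4 highest levels, the stalk genes, Rpsa, paralogs, Hdac3 and up to 4 called genes per list. Places in the ribosome, motifs and the sums over pseudogene copies were chosen after the values were seen. Some genes that this rule takes in are not reported here, though counts include them. Paralog ratios were compared by exact permutation. Other settings tried were TMM scaling, an equal ribosomal protein median, another pseudocount, 2 other filters, a replicate block and leaving out each library. Coordinates and promoters are from RefSeq on GRCm38.p6. Over all tested genes, same-numbered libraries of both groups did not deviate together (correlations -0.105, -0.056 and -0.086), so numbers were not treated as pairs. Over the members, Rps27rt included, these correlations were 0.928, -0.893 and -0.819. Those between differently numbered libraries were as large, from -0.95 to 0.95.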

Additional observations from a re-analysis of the deposited data

How the results depend on the processing

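TMM scaling turned the direction of the members. With it 39 members were higher and 1 lower (3248 and 2808 of all genes), with a median of 0.20. With an equal ribosomal protein median 14 were higher and 6 lower (2379 of all genes lower), with a median of 0.07. The second scaling centres libraries on the members, so a median near 0 and turned signs of small differences follow from its construction. TMM scaling divided controls by 1.13 to 1.15 and knockouts by 0.873 to 0.883. This raised the log2 difference of all abundant members by a near-equal amount, so their turned signs follow from these factors. Which scaling lies closer to the RNA of the cells was not tested. Signs turned with TMM scaling for Rpl39 (0.06), Rplp1 (0.12), Rpl3 (0.12), Rpl22l1 (0.11), Rps27l (0.12), Rpl10 (0.14), Rplp2 (0.18), Rps4x (0.20), Rpl7 (0.21), Rpsa (0.24), Rpl41 (0.31) and Rplp0 (0.33), and with the equal median for Rpl10 (0.01), Rplp2 (0.05), Rps4x (0.06), Rpl7 (0.07), Rpsa (0.10), Rpl41 (0.17) and Rplp0 (0.20). Leaving out 1 library at a time, the log2 difference ran from -2.09 to 0.69 for Rps27rt (0.57 without control 1, 0.69 without knockout 3), from -0.16 to 0.02 for Rpl41 (0.02 without knockout 1) and from -0.00 to 0.12 for Rpl9 (-0.00 without knockout 3). Leaving out each library gave 29 to 55 members lower, 3 to 5 higher and a median of -0.25 to -0.11, with 5780 to 6080 genes lower and 1027 to 1165 higher. With the replicate number as a block, 37 members were lower and 4 higher, and no named member changed its call. Pseudocount 0.1, no filter and a filter at 5 FPKM changed no call of a named member that could be fitted. All 7 paralog ratios kept their direction with pseudocount 0.1 and without any library. The 3 libraries per group and unknown depth limit small changes: an SE of 0.08 was typical of abundant members.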
